A study of Homo sapiens with 3 samples.

Results

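The 35 genes described here are the Hippo signalling components and the YAP target genes outside the CCN family, in KYSE510, an established cell line from a human squamous carcinoma of the esophagus. They were taken by symbol from a list of 23 components (the coactivators and TEAD factors, the kinases with their adaptors and scaffolds, and cofactors) and 12 target genes. All 35 had a row among the 19266 genes of the tables, and 34 passed the filter on low counts; DLC1 did not. The cells received lentivirus with short hairpin 1 (sh1) or hairpin 2 (sh2) against the transcript TCONS_02256997, or with a scrambled hairpin (control), for 24 h, and all 3 groups were then kept under 4 µM puromycin for 48 h. The study screened for potential targets of that transcript by RNA sequencing of total RNA. Each group is 1 sample, deposited as 3 numbered gene tables. Whether the tables are separate cultures, libraries or runs of 1 culture is not stated, so every SD, SE and p-value measures the spread between tables (n = 3 per group), which may be technical. The level of TCONS_02256997 itself was not analysed here.

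Hippo signalling restrains growth through a kinase cascade. The kinases STK3 and STK4 (MST2 and MST1), with the adaptor SAV1, activate LATS1 and LATS2 together with MOB1A or MOB1B, and LATS phosphorylation keeps the coactivators YAP1 and WWTR1 (TAZ) out of the nucleus. In the nucleus YAP1 and WWTR1 bind the TEAD1 to TEAD4 factors and switch on target genes, several of which, such as AMOTL2, AJUBA and LATS2, act back on the cascade. In squamous epithelia YAP1 is active in basal cells and is known to promote proliferation.

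Total expected counts (reads assigned to genes as estimates) were 14660821 to 14770512 in the sh1 tables, 15759270 to 16092417 in the sh2 tables and 15012961 to 15414591 in the control tables. The chi-square per degree of freedom between the tables of a group was 1.49 for sh1, 2.03 for sh2 and 1.75 for control, above the 1 that counting error alone gives, so no tables were merged. Levels are given in CPM (read counts relative to library size, adjusted by trimmed means) where groups are compared, and in TPM, which also corrects for transcript length, where genes are compared. Squamous markers (KRT5, KRT14, KRT6A, TP63, SOX2, DSG3 and SFN) summed to 2033 to 2068 TPM with sh1, 2494 to 2642 TPM with sh2 and 3656 to 3712 TPM in control, and KRT5 alone held 1015 ± 5.77 TPM with sh1, 976 ± 27.3 TPM with sh2 and 1609.8 ± 9.89 TPM in control. With each hairpin KRT5, KRT14, TP63, DSG3 and SFN fell, while SOX2 rose with both and KRT6A rose with sh2. Simple epithelial keratins (KRT8, KRT18 and KRT19) summed to 3481 to 3588 TPM with sh1, 3990 to 4078 TPM with sh2 and 3215 to 3298 TPM in control. KRT8 and KRT19 rose with both hairpins, while KRT18 fell with sh1 (-0.14 ± 0.03) and rose with sh2 (0.37 ± 0.03). The 5 fibroblast markers summed to 21.4 to 24.5 TPM with sh1, 26.6 to 28.1 TPM with sh2 and 20.3 to 21.4 TPM in control, nearly all of it COL1A1, with COL1A2 at 0 in every sh2 and control table. The 3 endothelial markers summed to 7.31 to 10.4 TPM with sh1, 7.67 to 8.74 TPM with sh2 and 6.27 to 7.15 TPM in control; with both hairpins CDH5 rose (log2 fold change 0.74 ± 0.12 with sh1 and 0.61 ± 0.12 with sh2), VWF fell (-0.66 ± 0.20 with sh1 and -1.28 ± 0.21 with sh2) and PECAM1 was not called. Of the 3 leukocyte markers CD68 had 160.0 ± 3.20 TPM with sh1, 151 ± 9.99 TPM with sh2 and 105 ± 3.83 TPM in control, while CD3E was at 0 in all but 1 table. PTPRC had 3.63 ± 0.414 TPM with sh1, 2.88 ± 0.847 TPM with sh2 and 2.43 ± 0.210 TPM in control. It was called higher with sh1 (0.63 ± 0.24) and was not called with sh2 (0.39 ± 0.25). The part of these marker shifts in the results below was not tested. In bulk RNA, fewer cells of a type and less RNA per cell cannot be told apart.

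Against control, the YAP1 gene and 7 of the 11 tested targets were lower with both hairpins, and the largest falls among the 34 tested members were those of F3 with sh1 and of AMOTL2 with both. Of the 34, sh1 called 27 (5 higher and 22 lower) and sh2 called 28 (6 higher and 22 lower), where a call is an adjusted p below 0.05 in the quasi-likelihood test of edgeR, adjusted by Benjamini-Hochberg over 13580 genes. Of all genes tested, 69.3% were called with sh1 and 68.5% with sh2; 34.7% were called higher and 34.6% lower with sh1, and 34.2% higher and 34.3% lower with sh2. The share of members called was 79.4% with sh1 and 82.4% with sh2, above that of all genes, and 64.7% were called lower with either hairpin. The members were chosen with earlier results of these data known, so these shares describe the list and test nothing. Both hairpins called 19 members lower, against 20.2% of all genes, and 3 members higher (NF2, VGLL4 and NT5E), against 19.4% of all genes. With sh1, 8 members were lower and 1 higher at 1.5-fold or more, against 12.8% and 11.3% of all genes; with sh2, 10 were lower and 2 higher, against 12.4% and 9.74%. At that size 5 members were lower with both (YAP1, AMOTL2, AJUBA, F3 and TGFB2), against 5.3% of all genes, and 1 was higher with both (NT5E), against 4.26%. At 2-fold or more, AMOTL2 and AJUBA were lower with both, against 1.77% of all genes. FRMD6 was called higher with sh1 and lower with sh2, as were 6.3% of all genes, and WWTR1 the other way, as were 6.38%. The median log2 fold change of the 34 was -0.31 with sh1 and -0.29 with sh2, beside 0.01 and 0.00 over all genes tested. The comparisons of sh1 and sh2 with control share their control tables.

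**Figure D1:**
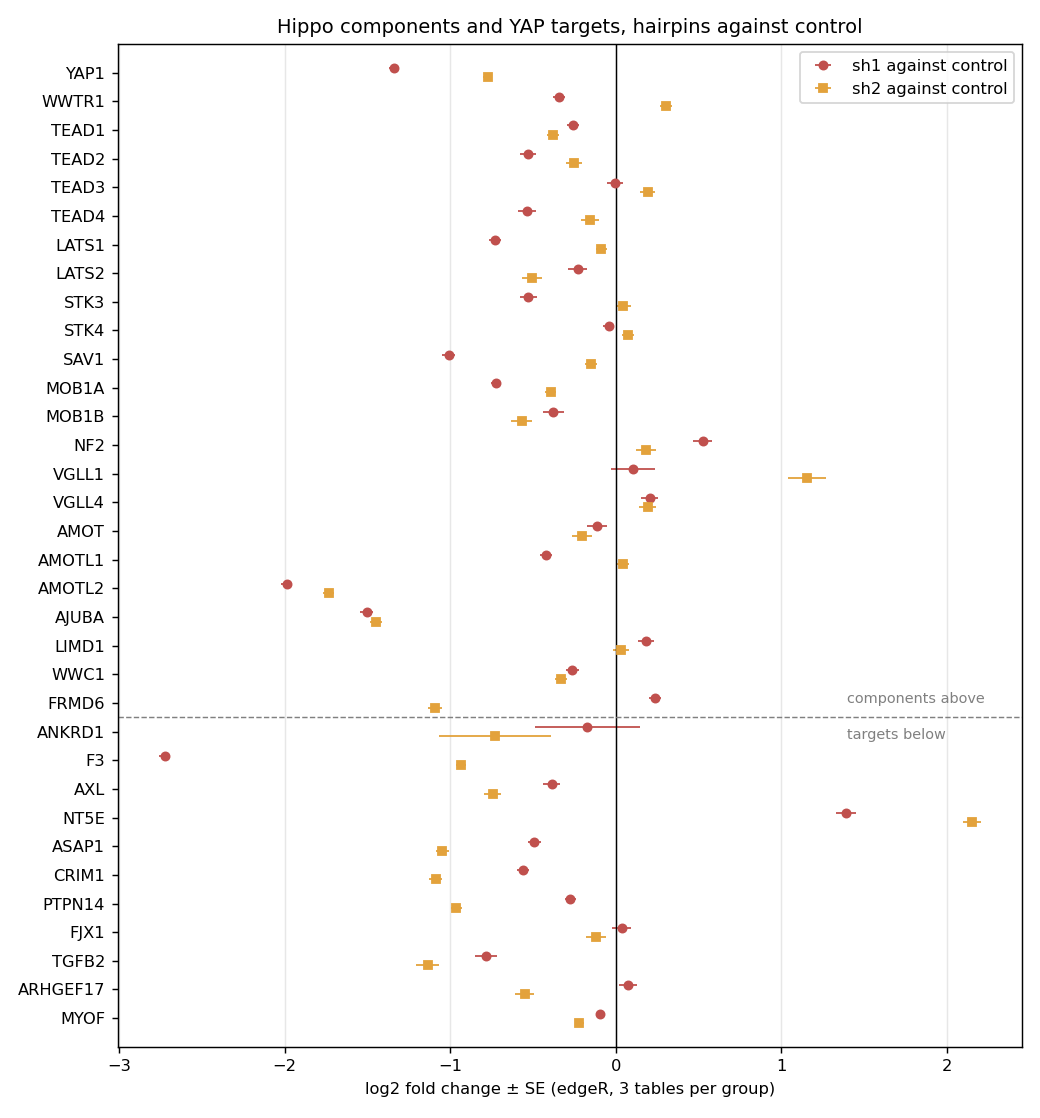
Log2 fold change (x axis) of the 34 tested members (y axis), components above the dashed line and targets below it, for sh1 (red circles) and sh2 (orange squares) against control; bars are SE from edgeR with 3 tables per group. Most points lie left of 0, with F3 at -2.72 with sh1, AMOTL2 at -1.99 with sh1 and -1.73 with sh2, and NT5E at 1.39 with sh1 and 2.16 with sh2 on the right.

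To set the promoter sequence beside these values, RefSeq windows from 250 bases before to 50 bases after a gene start (build GRCh38.p14, not the hg19 build named in the submitters' processing notes) were searched for the core TEAD element GGAATG on both strands and for the AP-1 element TGANTCA, which reads the same on both strands; no matches in these windows overlapped. Windows were found for 27 of the 35 members, some with several starts. GGAATG occurred in a window of 9 of these 27 genes, against 16.7% of the 27305 genes in the table, and TGANTCA in 4, against 9.37%; over windows the shares were 14.0% and 7.71% of 35116. The windows of the 5 members that fell at least 1.5-fold with both hairpins and of the 1 that rose are printed 5′ to 3′ on the strand of the gene, with matches to either element in capitals.
AMOTL2 (chr3:134374398-134374697, minus strand): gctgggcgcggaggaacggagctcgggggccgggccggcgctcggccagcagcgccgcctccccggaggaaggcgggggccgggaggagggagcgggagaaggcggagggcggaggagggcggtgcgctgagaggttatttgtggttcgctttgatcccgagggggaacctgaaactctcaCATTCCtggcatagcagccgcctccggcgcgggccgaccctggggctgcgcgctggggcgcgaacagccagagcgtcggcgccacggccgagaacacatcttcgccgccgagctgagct
AJUBA (chr14:22976793-22977092, minus strand): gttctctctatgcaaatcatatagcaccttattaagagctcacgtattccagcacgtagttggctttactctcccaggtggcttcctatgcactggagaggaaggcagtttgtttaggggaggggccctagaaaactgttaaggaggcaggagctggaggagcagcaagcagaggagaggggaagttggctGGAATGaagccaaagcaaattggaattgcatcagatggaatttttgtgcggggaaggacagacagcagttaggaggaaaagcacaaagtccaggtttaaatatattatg
YAP1 (chr11:102110197-102110496, plus strand): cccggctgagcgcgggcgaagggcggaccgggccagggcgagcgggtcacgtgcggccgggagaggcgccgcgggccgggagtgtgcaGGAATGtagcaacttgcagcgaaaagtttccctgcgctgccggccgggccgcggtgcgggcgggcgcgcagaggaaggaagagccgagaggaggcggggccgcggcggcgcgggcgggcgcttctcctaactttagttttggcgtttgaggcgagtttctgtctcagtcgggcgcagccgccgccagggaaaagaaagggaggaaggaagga
TGFB2 (chr1:218345086-218345385, plus strand): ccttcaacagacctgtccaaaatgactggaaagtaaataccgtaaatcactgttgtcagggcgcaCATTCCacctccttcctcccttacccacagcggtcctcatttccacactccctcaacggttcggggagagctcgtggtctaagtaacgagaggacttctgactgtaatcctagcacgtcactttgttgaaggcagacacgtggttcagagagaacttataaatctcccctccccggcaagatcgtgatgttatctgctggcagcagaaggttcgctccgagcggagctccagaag
F3 (chr1:94541710-94542009, minus strand): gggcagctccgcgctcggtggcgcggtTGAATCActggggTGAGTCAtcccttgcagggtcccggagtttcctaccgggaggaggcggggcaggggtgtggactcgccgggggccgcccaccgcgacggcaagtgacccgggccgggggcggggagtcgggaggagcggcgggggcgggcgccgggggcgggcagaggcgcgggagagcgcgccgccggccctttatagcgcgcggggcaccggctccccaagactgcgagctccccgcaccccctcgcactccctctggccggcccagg
NT5E (chr6:85449833-85450132, plus strand): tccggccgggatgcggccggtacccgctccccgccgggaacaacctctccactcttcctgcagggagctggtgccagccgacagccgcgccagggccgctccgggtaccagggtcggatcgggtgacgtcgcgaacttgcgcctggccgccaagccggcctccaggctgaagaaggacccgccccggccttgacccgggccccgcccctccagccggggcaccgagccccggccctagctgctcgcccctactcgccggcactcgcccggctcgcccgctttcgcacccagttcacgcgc
The TEAD element began at -69 in AMOTL2, -59 in AJUBA, -162 in YAP1 and -185 in TGFB2, counted from the start of the printed window's transcript as 0. The F3 window held no GGAATG but 2 AP-1 elements, at -223 and -210, and the NT5E window held neither. AMOTL2 and AJUBA each have a further start, which lies upstream of the printed one on the strand of the gene. The windows of these starts (chr3:134375368-134375667 and chr14:22982502-22982801) held no match and are not printed. A match is a stretch of letters, not evidence of binding.

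**Figure D2:**
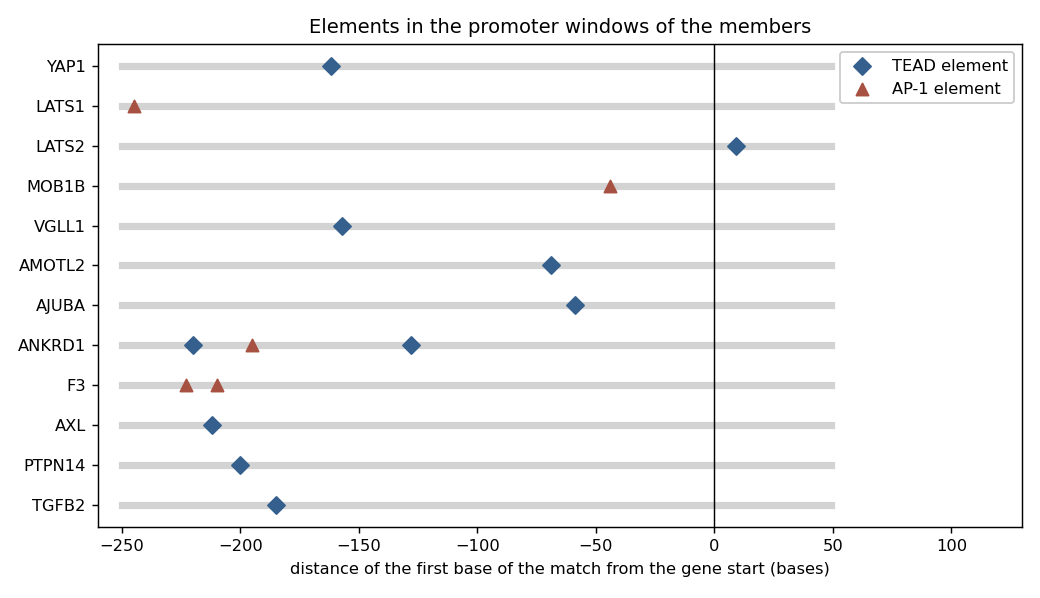
First base of each TEAD element (blue diamonds) and AP-1 element (red triangles), as distance in bases from the gene start (x axis), in the promoter windows (grey bars) of the 12 members that hold either. ANKRD1 holds 2 TEAD elements, at -220 and -128, and 1 AP-1 element, at -195.

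YAP1, the main coactivator of the pathway, was one of the more abundant members, and it was lower with both hairpins. It stood at 167, 171 and 169 CPM with sh1, 248, 258 and 246 CPM with sh2 and 428, 432 and 424 CPM in control. The 3 groups did not overlap, and sh1 was lowest. Its log2 fold change was -1.34 ± 0.03 with sh1 and -0.77 ± 0.03 with sh2. WWTR1, which encodes the related coactivator TAZ, moved in opposite directions, with 59.4, 59.3 and 60.5 CPM with sh1, 92.7, 94.0 and 93.8 CPM with sh2 and 76.1, 75.8 and 75.2 CPM in control. Its log2 fold change was -0.34 ± 0.04 with sh1 and 0.30 ± 0.04 with sh2, and again no groups overlapped (adjusted p at most 8.14e-09 for both genes and hairpins, edgeR quasi-likelihood test, Benjamini-Hochberg). Per length, the summed level of both coactivators was 105 ± 0.809 TPM with sh1, 154 ± 2.78 TPM with sh2 and 235 ± 2.64 TPM in control (SD, n = 3). Of that sum YAP1 held 73.0 ± 0.220% with sh1, 71.7 ± 0.476% with sh2 and 84.3 ± 0.0439% in control, and WWTR1 the rest.

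TEAD1 to TEAD4 encode the DNA-binding partners of YAP1 and TAZ, and all 4 were present. Their summed level was 173 ± 2.08 TPM with sh1, 199 ± 7.70 TPM with sh2 and 224 ± 7.09 TPM in control, without overlap between the groups. TEAD1, TEAD2 and TEAD4 fell with both hairpins. TEAD2 had 44.6 ± 1.85 CPM with sh1, 54.0 ± 2.44 CPM with sh2 and 64.3 ± 3.04 CPM in control, a log2 fold change of -0.53 ± 0.05 with sh1 and -0.25 ± 0.05 with sh2. TEAD4 had 26.9 ± 1.16 CPM with sh1, 35.1 ± 0.542 CPM with sh2 and 39.1 ± 2.005 CPM in control, a log2 fold change of -0.54 ± 0.06 with sh1 and -0.15 ± 0.05 with sh2. TEAD1 had 88.8 ± 1.204 CPM with sh1, 81.6 ± 0.689 CPM with sh2 and 106 ± 1.18 CPM in control and changed by -0.26 ± 0.03 with sh1 and -0.38 ± 0.03 with sh2. TEAD1 was lowest with sh2, TEAD2 and TEAD4 with sh1. TEAD3 had 74.7, 77.3 and 80.6 CPM with sh1, 90.03, 81.9 and 95.4 CPM with sh2 and 75.3, 78.6 and 79.5 CPM in control. The sh2 tables were above all others, and sh1 and control overlapped. TEAD3 rose with sh2 (0.20 ± 0.05) and was not called with sh1 (0.00 ± 0.05). Its share of the summed TEAD level in TPM was 35.7 ± 1.49% with sh1, 35.1 ± 1.448% with sh2 and 28.5 ± 0.521% in control. The largest adjusted p among the 7 calls was 0.0101 (TEAD4 with sh2, edgeR quasi-likelihood test, Benjamini-Hochberg).

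**Figure D3:**
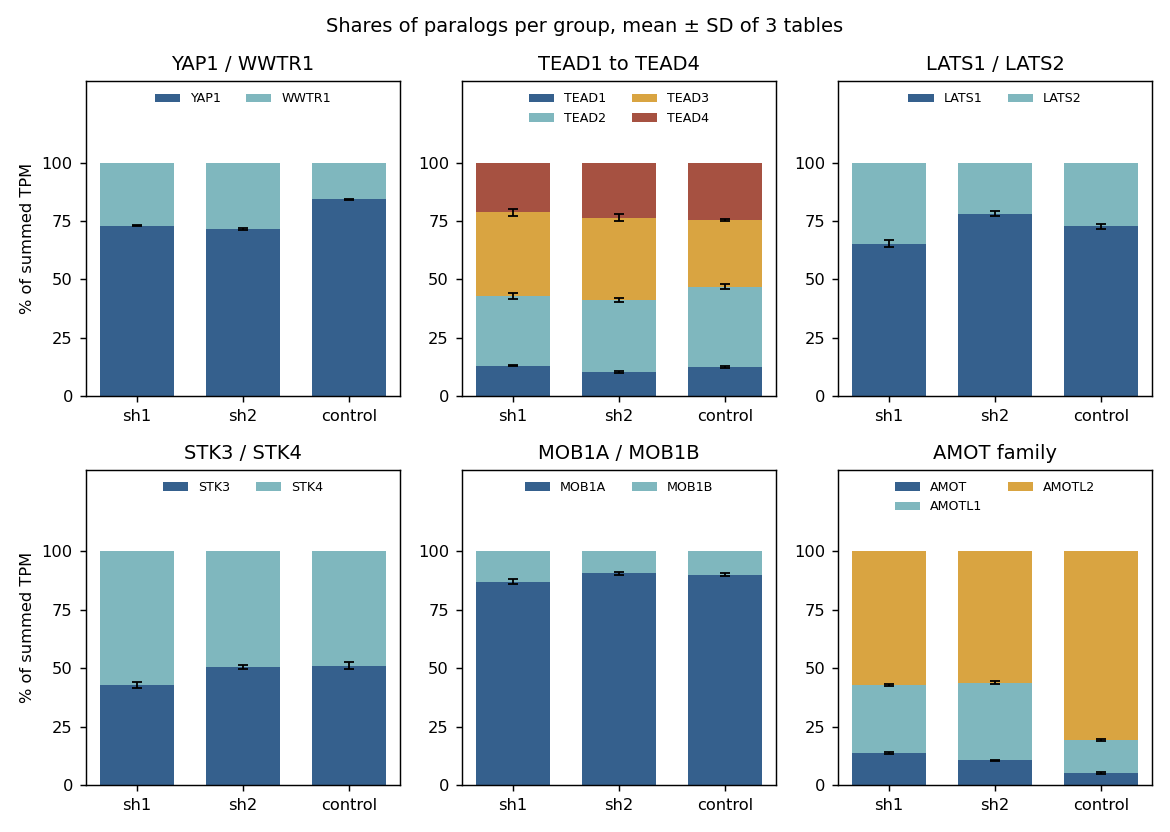
Share of each gene in the summed TPM of its paralog set (y axis, percent) with sh1, sh2 and in control; bars are means and whiskers SD over 3 tables. The YAP1 share is 73.0% with sh1, 71.7% with sh2 and 84.3% in control, and the AMOTL2 share is 57.2% with sh1, 56.2% with sh2 and 80.8% in control.

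In the kinase core, SAV1, LATS1, STK3, MOB1A and, slightly, STK4 were lower with sh1 than with sh2. LATS2 and MOB1B were lower with sh2, although the MOB1B call was lost when certain single tables were left out. SAV1, the scaffold that joins STK3 and STK4 to LATS, had 70.7, 73.4 and 72.9 CPM with sh1, 134, 126 and 133 CPM with sh2 and 149, 148 and 139.8 CPM in control. With sh1 its level was below every other table, and with sh2 it was slightly below control without overlap. Its log2 fold change was -1.01 ± 0.04 with sh1 and -0.15 ± 0.03 with sh2. LATS1, the kinase that phosphorylates YAP1, had 73.3, 71.2 and 69.2 CPM with sh1, 113, 111 and 110.3 CPM with sh2 and 115, 119 and 119.96 CPM in control. All 3 groups were separate, with sh2 just below control. LATS1 fell with sh1 (-0.73 ± 0.04). Its change with sh2 was small (-0.09 ± 0.03, adjusted p = 0.0277, edgeR quasi-likelihood test, Benjamini-Hochberg). This call was lost with DESeq2 (-0.09), with upper-quartile scaling (-0.07) and on FPKM values (-0.08 with either pseudocount). It was also lost without sh2 table no. 3 (-0.08), control table no. 2 (-0.09) or control table no. 3 (-0.08). LATS2, its paralog and a YAP target, was 1 of the genes that fell more with sh2, with 28.1 ± 1.04 CPM with sh1, 23.2 ± 1.29 CPM with sh2 and 33.0 ± 1.71 CPM in control and log2 fold changes of -0.23 ± 0.06 with sh1 and -0.51 ± 0.06 with sh2. Of the summed LATS level in TPM, LATS1 held 65.3 ± 1.41% with sh1, 78.3 ± 0.925% with sh2 and 72.8 ± 0.939% in control.

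STK3, one of the upstream kinases, fell with sh1 (-0.53 ± 0.05) and was not called with sh2 (0.05 ± 0.05), with 35.04 ± 1.37 CPM with sh1, 52.2 ± 2.41 CPM with sh2 and 50.5 ± 1.11 CPM in control. STK4, the other, was called with neither (-0.04 ± 0.04 with sh1 and 0.08 ± 0.03 with sh2). Its adjusted p with sh2 was 0.0519 (edgeR quasi-likelihood test, Benjamini-Hochberg), and upper-quartile scaling called it higher (0.09). MOB1A, an adaptor that activates LATS, had 163, 159.5 and 156 CPM with sh1, 206, 194 and 201 CPM with sh2 and 255, 264 and 271 CPM in control. It was lower with both hairpins and most with sh1, without overlap (-0.72 ± 0.03 with sh1 and -0.39 ± 0.03 with sh2). MOB1B fell with both as well (-0.38 ± 0.06 with sh1 and -0.57 ± 0.06 with sh2). The summed MOB1 level was 89.1 ± 2.58 TPM with sh1, 106 ± 2.998 TPM with sh2 and 147 ± 6.66 TPM in control. Of it MOB1A held 87.1 ± 0.986% with sh1, 90.7 ± 0.727% with sh2 and 90.1 ± 0.532% in control.

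Among the upstream regulators, NF2 rose with both hairpins and FRMD6 moved in opposite directions. NF2 (merlin), a membrane scaffold that recruits LATS, had 46.2, 41.7 and 44.2 CPM with sh1, 34.7, 34.7 and 34.8 CPM with sh2 and 28.6, 29.3 and 33.7 CPM in control. The groups did not overlap, although the highest control table came close to the sh2 tables. NF2 rose with both hairpins (0.53 ± 0.06 with sh1 and 0.19 ± 0.06 with sh2). The sh2 call was lost without control table no. 1 (0.14) or control table no. 2 (0.15). FRMD6 (willin), a FERM protein that acts upstream of the kinases, had 121, 118 and 113 CPM with sh1, 47.6, 47.8 and 44.4 CPM with sh2 and 98.7, 98.3 and 101 CPM in control. It rose slightly with sh1 (0.24 ± 0.04) and fell with sh2 (-1.09 ± 0.04), with no overlap between groups. WWC1 (KIBRA), an activator of LATS, fell modestly with both (-0.26 ± 0.04 with sh1 and -0.33 ± 0.04 with sh2). The largest adjusted p among these 6 calls was 0.00715 (NF2 with sh2, edgeR quasi-likelihood test, Benjamini-Hochberg).

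**Figure D4:**
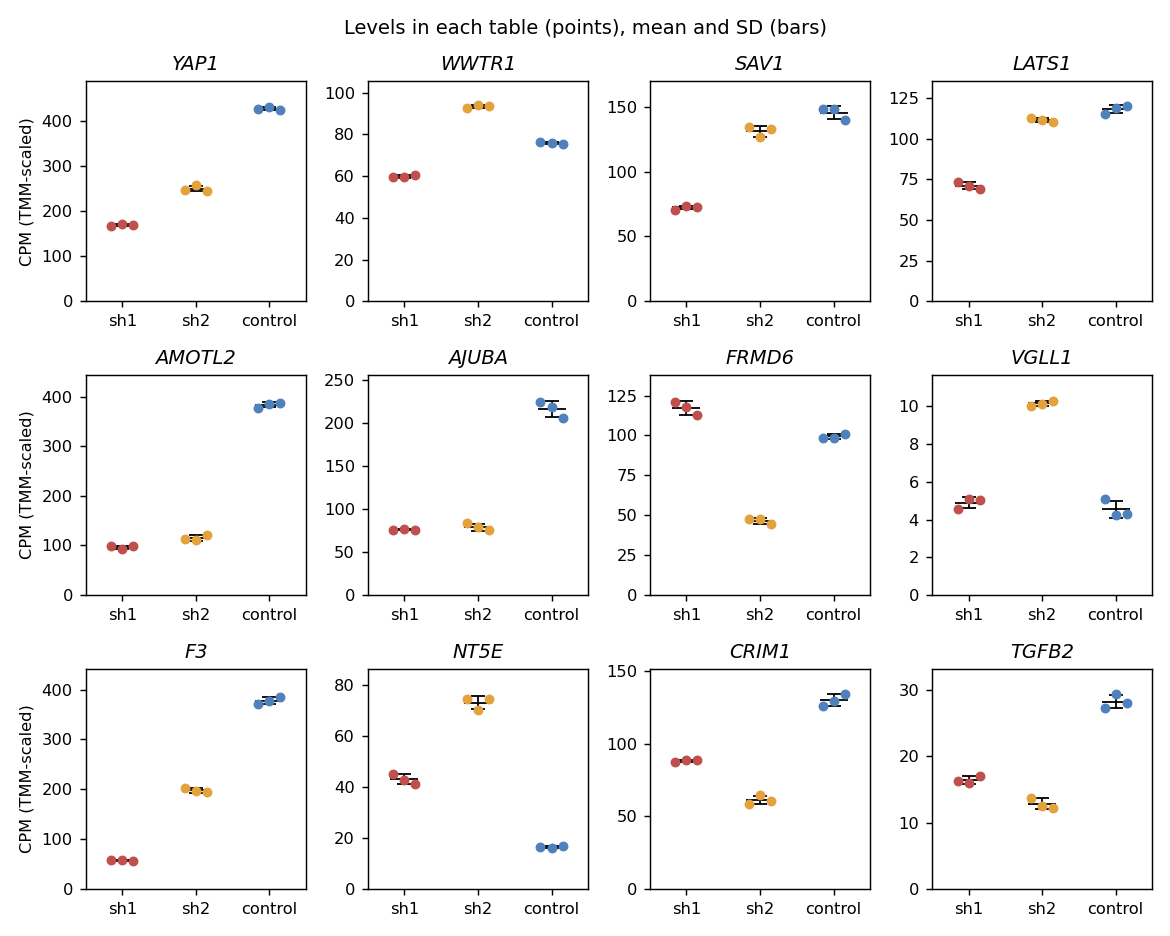
Level in CPM (y axis, from 0) of 12 members in each of the 3 tables (points) with sh1, sh2 and in control; black bars are mean and SD. YAP1, AMOTL2, AJUBA, F3, CRIM1 and TGFB2 are lower with both hairpins, NT5E is higher with both, and WWTR1 and FRMD6 move in opposite directions.

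The angiomotins bind YAP1 and hold it at junctions. AMOTL2, which is also a YAP target, had 98.3, 93.4 and 98.6 CPM with sh1, 114, 111 and 122 CPM with sh2 and 378, 385 and 388 CPM in control. Every hairpin table lay far below the lowest control table, and sh1 below sh2. The log2 fold change was -1.99 ± 0.03 with sh1 and -1.73 ± 0.03 with sh2. AMOTL1 fell with sh1 (-0.42 ± 0.04) and was not called with sh2 (0.05 ± 0.04). AMOT fell with sh2 (-0.20 ± 0.06) and was not called with sh1 (-0.11 ± 0.06), but was called lower with sh1 when control table no. 2 was left out (-0.16). The summed level of the 3 genes was 80.9 ± 3.02 TPM with sh1, 96.9 ± 3.59 TPM with sh2 and 235 ± 6.11 TPM in control. Of it AMOTL2 held 57.2 ± 0.268% with sh1, 56.2 ± 0.748% with sh2 and 80.8 ± 0.386% in control.

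AJUBA, a LIM protein that binds and inhibits LATS and is itself a YAP target, had 75.6, 76.1 and 76.0 CPM with sh1, 83.1, 78.6 and 75.1 CPM with sh2 and 223, 218 and 205 CPM in control. Every hairpin table was below every control table, and sh1 and sh2 tables overlapped. The log2 fold change was -1.50 ± 0.04 with sh1 and -1.45 ± 0.04 with sh2. LIMD1, a LIM protein with a similar role, rose slightly with sh1 (0.18 ± 0.05) and was not called with sh2 (0.03 ± 0.05). The cofactors VGLL1 and VGLL4 bind TEAD factors at the surface that YAP1 uses. VGLL1 had 4.55, 5.08 and 5.02 CPM with sh1, 10.0, 10.1 and 10.3 CPM with sh2 and 5.07, 4.26 and 4.29 CPM in control. The sh2 tables were above all others, and sh1 overlapped with control. VGLL1 rose with sh2 (1.16 ± 0.11) and was not called with sh1 (0.10 ± 0.13). VGLL4, a repressor of TEAD activity, rose with both (0.21 ± 0.05 with sh1 and 0.19 ± 0.05 with sh2), although 1 control table (57.4 CPM) overlapped with the sh2 tables (57.0 to 60.9 CPM). The largest adjusted p among the calls of AMOTL2, AJUBA and VGLL4 was 0.00131 (VGLL4 with sh2, edgeR quasi-likelihood test, Benjamini-Hochberg).

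Of the 11 target genes tested, sh1 called 7 lower and 1 higher, against 34.6% and 34.7% of all genes, and sh2 called 8 lower and 1 higher, against 34.3% and 34.2%. Their median log2 fold change was -0.27 with sh1 and -0.74 with sh2. At 1.5-fold or more, 2 were lower with sh1 and 6 with sh2, against 12.8% and 12.4% of all genes. F3 (tissue factor), the receptor that starts blood clotting, was the most abundant member per length in control (57.7 ± 1.07 TPM with sh1, 197 ± 5.78 TPM with sh2 and 395 ± 12.2 TPM in control). It had 57.2, 58.5 and 56.0 CPM with sh1, 203, 197 and 194 CPM with sh2 and 371, 378 and 386 CPM in control. All 3 groups were separate, and the sh1 tables were lowest. Relative to control, the log2 fold change was -2.72 ± 0.03 with sh1 and -0.93 ± 0.03 with sh2.

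Besides MYOF, whose smaller changes are given below, 5 targets fell with both hairpins and further with sh2. CRIM1, a transmembrane protein that binds BMPs, had 87.4, 88.6 and 88.7 CPM with sh1, 58.7, 64.4 and 60.4 CPM with sh2 and 126, 129.5 and 134 CPM in control. This was a log2 fold change of -0.56 ± 0.04 with sh1 and -1.09 ± 0.04 with sh2. TGFB2, a ligand of the TGF-beta family, had 16.3, 15.98 and 17.0 CPM with sh1, 13.8, 12.5 and 12.3 CPM with sh2 and 27.3, 29.3 and 28.1 CPM in control. This was a log2 fold change of -0.78 ± 0.07 with sh1 and -1.14 ± 0.07 with sh2. In both genes the order was sh2, sh1, control from low to high, with no overlap. PTPN14, a phosphatase that binds YAP1, had 151 ± 5.88 CPM with sh1, 93.5 ± 1.41 CPM with sh2 and 182 ± 4.34 CPM in control and changed by -0.27 ± 0.03 with sh1 and -0.96 ± 0.04 with sh2. ASAP1, an ARF GTPase-activating protein, had 72.2 ± 3.32 CPM with sh1, 49.2 ± 1.44 CPM with sh2 and 102 ± 2.71 CPM in control and changed by -0.49 ± 0.04 with sh1 and -1.05 ± 0.04 with sh2. AXL, a receptor tyrosine kinase, had 35.7 ± 1.84 CPM with sh1, 27.9 ± 0.873 CPM with sh2 and 46.6 ± 0.311 CPM in control and changed by -0.39 ± 0.05 with sh1 and -0.74 ± 0.05 with sh2. These 3 had the same order of groups. The largest adjusted p for these 5 genes was 6.02e-08 (AXL with sh1, edgeR quasi-likelihood test, Benjamini-Hochberg).

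NT5E, which encodes the ecto-nucleotidase CD73 and is listed among YAP targets, moved the other way. It had 45.1, 42.9 and 41.4 CPM with sh1, 74.7, 70.2 and 74.6 CPM with sh2 and 16.5, 15.96 and 16.8 CPM in control. Every hairpin table was above every control table, and sh2 was highest. The log2 fold change was 1.39 ± 0.06 with sh1 and 2.16 ± 0.05 with sh2 (adjusted p at most 1.02e-18, edgeR quasi-likelihood test, Benjamini-Hochberg). NT5E was the only target gene called higher, with either hairpin.

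Of the other 5 targets, MYOF fell with both hairpins, ARHGEF17 fell with sh2, FJX1 and ANKRD1 were called with neither hairpin, and DLC1 was not tested. MYOF, a ferlin of the plasma membrane, had 578 ± 5.01 CPM with sh1, 530.1 ± 8.09 CPM with sh2 and 617 ± 8.56 CPM in control, and fell slightly with both (-0.09 ± 0.03 with sh1 and -0.22 ± 0.03 with sh2); the sh1 call was lost with upper-quartile scaling (-0.05). ARHGEF17 fell with sh2 (-0.55 ± 0.06) and was not called with sh1 (0.08 ± 0.05), where upper-quartile scaling called it higher (0.12). FJX1, a secreted glycoprotein, was called with neither hairpin (0.04 ± 0.06 with sh1 and -0.12 ± 0.06 with sh2), but was called lower with sh2 without control table no. 2 (-0.19) or sh2 table no. 3 (-0.15). ANKRD1, an ankyrin repeat protein and a classical YAP target, had 37 counts over the sh1 tables, 27 over the sh2 tables and 43 over the control tables, or 0.836 ± 0.103 CPM with sh1, 0.566 ± 0.0554 CPM with sh2 and 0.942 ± 0.220 CPM in control. It was called with neither hairpin (-0.17 ± 0.32 with sh1 and -0.73 ± 0.34 with sh2), and with sh2 it was called lower without control table no. 2 (-0.89). DLC1 had 1 count in sh1 table no. 2 and 0 counts in the other 8 tables; the limit that a count of 0 allows (3 counts) is 0.186 to 0.205 CPM over the tables.

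Set directly against each other, the hairpins differed for 29 of the 34 members, against 69.8% of all genes tested. Of 23 components, 13 were lower with sh1 than with sh2 and 6 higher, while of 11 targets 2 were lower and 8 higher. Over all genes 35.6% were lower and 34.2% higher. Of 24 tested further YAP and TEAD targets outside the members, 8 were lower and 7 higher with sh1, with a median log2 difference of -0.0088. The median log2 difference, sh1 against sh2, was -0.20 for components and 0.36 for targets, beside 0.00 over all genes tested. At 1.5-fold or more, 6 members were lower with sh1, against 11.3% of all genes. SAV1 (-0.86 ± 0.04), LATS1 (-0.65 ± 0.04), WWTR1 (-0.65 ± 0.04) and VGLL1 (-1.05 ± 0.11) were the components lower at that size. FRMD6 (1.33 ± 0.04) was the 1 component higher with sh1 at that size, and it was the largest difference of any component. The share of all genes higher with sh1 at that size is not given here, so the higher members are listed without a comparison. Among targets, PTPN14 (0.69 ± 0.04) and ARHGEF17 (0.63 ± 0.06) were higher with sh1 at that size, and F3 (-1.79 ± 0.04) and NT5E (-0.76 ± 0.04) lower. The largest adjusted p among these 9 was 1.75e-09 (VGLL1, edgeR quasi-likelihood test, Benjamini-Hochberg).

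YAP1 itself was lower with sh1 than with sh2 (-0.56 ± 0.03), as were STK3 (-0.57 ± 0.05), AMOTL1 (-0.47 ± 0.04), TEAD4 (-0.38 ± 0.06), MOB1A (-0.33 ± 0.03), TEAD2 (-0.27 ± 0.05), AMOTL2 (-0.26 ± 0.04), TEAD3 (-0.20 ± 0.05) and STK4 (-0.12 ± 0.03). NF2 (0.34 ± 0.06), LATS2 (0.28 ± 0.06) and TEAD1 (0.12 ± 0.04) were higher with sh1. Of the smaller differences, that of MOB1B (0.19 ± 0.07) was lost without sh1 table no. 1 (0.18), sh1 table no. 3 (0.17) or sh2 table no. 3 (0.15). That of LIMD1 (0.15 ± 0.05) was lost without sh1 table no. 2 (0.12) or sh2 table no. 1 (0.11). That of the target FJX1 (0.15 ± 0.06) was lost with DESeq2 (0.15) and without sh1 table no. 3 (0.14) or sh2 table no. 1 (0.11). AJUBA, AMOT, VGLL4 and ANKRD1 showed no called difference (-0.06 ± 0.04, 0.09 ± 0.06, 0.01 ± 0.05 and 0.56 ± 0.35), nor did WWC1 (0.07 ± 0.04), which upper-quartile scaling called higher with sh1 (0.09). Among targets with smaller differences, CRIM1 (0.53 ± 0.04), ASAP1 (0.55 ± 0.04), AXL (0.36 ± 0.05), TGFB2 (0.35 ± 0.08) and MYOF (0.12 ± 0.03) were higher with sh1.

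**Figure D5:**
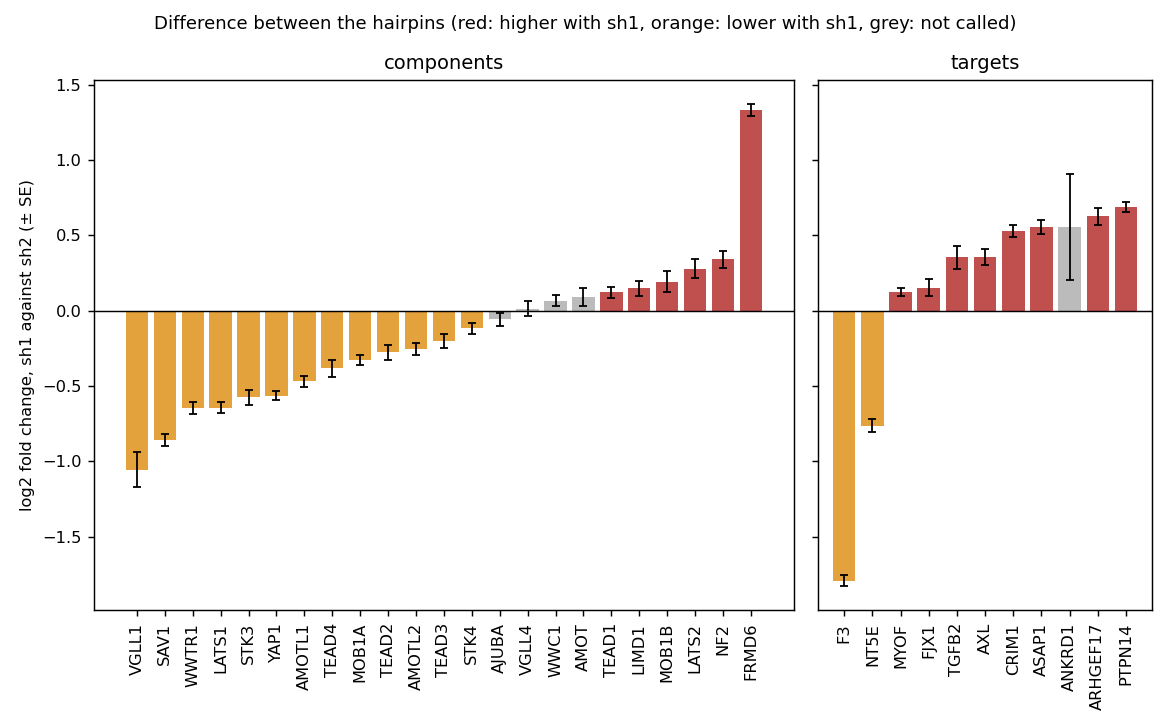
Log2 fold change of sh1 against sh2 (y axis, bars, with SE as whiskers) for the 23 components (left) and 11 tested targets (right), ordered by value; red bars were called higher with sh1, orange bars lower with sh1, grey bars were not called. Of the targets 8 are red and 2 orange (F3 and NT5E), while of the components 6 are red and 13 orange.

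The tables also give a transcript length per gene, averaged over its transcripts by estimated abundance, which shifts when transcript usage shifts. Of the 22 tested members with 2 or more transcripts, the sh1 and control tables did not overlap for 3 (YAP1, MOB1B and WWC1), against 17.6% of such genes, and the sh2 and control tables for 2 (YAP1 and MOB1B), against 17.6%. Between the hairpins 3 did not overlap (YAP1, WWTR1 and F3), against 18.2%. No share of members exceeded that of all genes. MOB1B had 5973, 6193 and 5868 bases with sh1, 6027, 6054 and 5921 bases with sh2 and 6267, 6279 and 6371 bases in control, shorter in every hairpin table than in control. For YAP1 the lengths were 5331, 5332 and 5259.7 bases with sh1, 5367, 5359 and 5366 bases with sh2 and 5346, 5353 and 5339 bases in control, a small difference. These lengths rest on the authors' estimates of how reads divide between transcripts.

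Further genes of the pathway came from lists of upstream regulators, of the STRIPAK phosphatase complex and other inhibitors of the kinases, of coactivator turnover and cofactors, and of more targets. Of 24 tested further targets, 14 fell and 6 rose with sh1 (34.6% and 34.7% of all genes) and 14 fell and 5 rose with sh2 (34.3% and 34.2% of all genes), with a median log2 fold change of -0.44 with sh1 and -0.37 with sh2. At 1.5-fold or more, 5.3% of all genes fell with both hairpins. The lists held 8 such genes: 6 of the 24 further targets, 1 of 44 upstream regulators, 1 of 17 genes for turnover and cofactors, and 0 of 13 on the STRIPAK list. EDN1, which encodes the vasoconstrictor endothelin 1, had 24.4, 25.5 and 23.8 CPM with sh1, 17.3, 18.2 and 18.0 CPM with sh2 and 90.1, 89.7 and 88.6 CPM in control, and changed by -1.86 ± 0.05 with sh1 and -2.33 ± 0.05 with sh2. THBS1, a matrix glycoprotein, changed by -0.99 ± 0.04 with sh1 and -0.99 ± 0.04 with sh2, GADD45A, a stress-response gene, by -0.96 ± 0.05 with sh1 and -1.11 ± 0.05 with sh2, and the proto-oncogene MYC by -0.94 ± 0.03 with sh1 and -0.96 ± 0.03 with sh2. RBMS3, an RNA-binding protein, changed by -1.15 ± 0.14 with sh1 and -0.95 ± 0.13 with sh2, and the keratin KRT34, at 0.701 ± 0.170 CPM with sh1, 0.673 ± 0.203 CPM with sh2 and 1.84 ± 0.440 CPM in control, by -1.39 ± 0.30 with sh1 and -1.45 ± 0.30 with sh2. The other 2 were YWHAQ (-1.41 ± 0.03 with sh1 and -1.16 ± 0.03 with sh2), a 14-3-3 protein of the kind that binds phosphorylated YAP1, and STK38L (-1.09 ± 0.04 with sh1 and -0.91 ± 0.04 with sh2), a kinase related to LATS. The largest adjusted p among these 8 genes was 0.000181 (KRT34 with sh1, edgeR quasi-likelihood test, Benjamini-Hochberg). Of the other 14-3-3 genes, SFN also fell with both hairpins (-0.99 ± 0.03 with sh1 and -0.27 ± 0.03 with sh2), and the rest did not. YWHAE (0.30 ± 0.02 with sh1 and 0.44 ± 0.02 with sh2) and YWHAZ (0.40 ± 0.03 with sh1 and 0.29 ± 0.03 with sh2) rose with both hairpins. YWHAB rose with sh2 and was not called with sh1. YWHAG fell with sh1 and rose with sh2, and YWHAH did the reverse.

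Of 44 tested upstream regulators, 22 fell and 9 rose with sh1 and 20 fell and 11 rose with sh2, against the same 34.6% and 34.7% of all genes with sh1 and 34.3% and 34.2% with sh2, with a median log2 fold change of -0.12 with sh1 and -0.07 with sh2. DCHS1, VGLL2 and SLIT2 of these lists did not pass the filter on low counts. Of the 13 genes on the STRIPAK list, 8 fell and 2 rose with sh1, while 3 fell and 9 rose with sh2; in either direction 34.2% to 34.7% of all genes were called. Of these 13, 9 were lower with sh1 than with sh2 and 1 was higher, against 35.6% and 34.2% of all genes. Of the 17 tested genes for turnover and cofactors, 8 fell and 4 rose with sh1, and 5 fell and 9 rose with sh2, beside those same shares. Between the hairpins, 13 of the 17 were lower with sh1 and 3 higher, again against 35.6% and 34.2% of all genes. SFN, a 14-3-3 protein that is also on the squamous marker list, changed by -0.99 ± 0.03 with sh1 and -0.27 ± 0.03 with sh2.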

How the data were processed

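Per the file headers, each of the 9 deposited tables lists 19266 genes by Entrez identifier with their expected count, TPM, FPKM and length; the authors left the expected counts without normalization. RSEM (1.2.12), Bowtie2 (2.2.5), HISAT2 (2.0.4), DESeq2 (1.4.5) and hg19 are named in the submitters' processing notes, without roles. Whether counting used strand is not stated, so antisense and overlapping genes are uncertain. RefSeq (GRCh38.p14) supplied promoters and the symbols of 19223 identifiers. Expected counts were rounded and analysed in R 4.3.3 with edgeR 4.0.16: filterByExpr kept 13580 genes, TMM scaled the tables, and 1 quasi-likelihood fit held all 9 tables with group as its term. The edgeR coefficient of variation was 2.33%, here spread between tables. SE is |log2 fold change| / √F. The scripts were tested on simulated counts. Alternatives used DESeq2 1.42.0, upper-quartile scaling, no filter and limma 3.58.1 on log2(FPKM + 1) or log2(FPKM + 0.1) from the FPKM the authors deposited (mean FPKM of 1 or more; low genes are understated). TPM as deposited gave paralog shares. The members and lists were chosen with earlier results of these data known. All 35 members are named; of the other lists, the genes called the same way and changed at least 1.5-fold with both hairpins. The limit of 3 counts covers counting error only.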

Additional observations from a re-analysis of the deposited data

Results flagged for a closer look

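WWTR1 and FRMD6 were each called in opposite directions by the hairpins against control, and the difference itself was tested. WWTR1 was lower with sh1 and higher with sh2, with a log2 difference of -0.65 ± 0.04 (sh1 against sh2, adjusted p = 1.22e-15, edgeR quasi-likelihood test, Benjamini-Hochberg). FRMD6 was higher with sh1 and lower with sh2, at a log2 difference of 1.33 ± 0.04 (adjusted p = 3.61e-22, edgeR quasi-likelihood test, Benjamini-Hochberg). In both genes the 3 tables of each group stood apart from those of the other groups, and both hairpins were set against the same control tables. Opposite calls were not rare: 6.3% of all genes tested took the course of FRMD6 and 6.38% that of WWTR1.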

How the results depend on the processing

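Each comparison was repeated under 16 alternatives, which gave 1626 log2 values for the tested members; 1591 kept their direction and their side of the threshold, 18 lost a call, 7 gained one and 10 changed sign. With upper-quartile scaling 2 targets, not 1, were called higher with sh1 (ARHGEF17 in addition to NT5E), and TEAD3 and STK4 had values of 0.042 and 0.0044 with sh1. Leaving out 1 table at a time turned the sign of uncalled values only: TEAD3 with sh1 ranged from -0.032 to 0.022, ANKRD1 with sh1 from -0.32 to 0.016, FJX1 with sh1 from -0.025 to 0.088, LIMD1 with sh2 from -0.0015 to 0.070 and VGLL4 between the hairpins from -0.014 to 0.032. Without 1 table, 22 to 23 members were called lower with sh1 and 21 to 23 with sh2. The table numbers did not pair the tables (same-numbered deviations correlated between -0.09 and 0.04), and the fit with the table number as a replicate block called 22 members lower with each hairpin, as without it. Whether the spread between tables includes that between cultures is not known. ANKRD1 rests on 27 to 43 counts per group. The cause of these changes was not tested.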
